A study of Mus musculus with 9 samples.

Results

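The Fanconi anaemia and homologous recombination genes described here are a list of 37 named genes whose proteins repair DNA breaks and crosslinks. A gene was measured where a probe set of the array was annotated to that gene alone, and of several such probe sets the one of highest mean level was taken. By that rule 35 of the 37 were found among 19938 genes with such a probe set, and Xrcc2 and Rbbp8 were not analysed here. The rule goes by gene names, not by differences between groups, but the list was chosen with earlier results of these data known. Counts set against all genes are therefore not those of a list chosen blind.

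RNA was measured on 9 Affymetrix mouse gene arrays, 3 in each of 3 groups, all at postnatal day 13. The Ptch1KO group is medulloblastoma tissue labelled as knockout for Ptch1, the receptor that holds Sonic hedgehog signalling off. The SufuKO group is cerebellum labelled as knockout for Sufu, which holds back the Gli transcription factors at the end of the same pathway. The wildtype group is cerebellum without either deletion. The labels name no strain, sex, Cre driver or deleted part of either gene, and they leave out whether each array stands for its own animal. The p-values therefore rest on sample-to-sample spread that may be technical. Xist, the transcript of the inactive X chromosome, was high on all wildtype arrays and low on most mutant arrays. Sex may thus be unbalanced in every comparison with wildtype. Genotype and tissue cannot be told apart in the tumour group, since every Ptch1KO array is tumour and no other array is.

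The Fanconi core complex is a ubiquitin ligase that marks the FANCD2 and FANCI pair at DNA interstrand crosslinks. Homologous recombination repairs breaks and stalled replication forks from the sister chromatid: ends are trimmed to single strands, RPA coats them, and BRCA1, PALB2 and BRCA2 prepare them for pairing with the intact copy. Many of these genes are switched on with DNA replication. Inherited loss of BRCA2 or PALB2 function predisposes people to medulloblastoma of the Sonic hedgehog type, which arises from cerebellar granule neuron progenitors.

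Most of the 35 genes were higher in both mutant tissues than in wildtype cerebellum, and higher again in tumour than in SufuKO cerebellum. Between SufuKO and wildtype cerebella, 24 rose, 1 fell and 10 did not pass a limma adjusted p under 0.05, where 13% of the 16323 genes tested rose and 12.4% fell. Between Ptch1KO tumours and wildtype cerebella, 30 rose, 1 fell and 4 did not pass, where 22.1% of all genes rose and 24.7% fell. Between Ptch1KO tumours and SufuKO cerebella, 26 rose, 1 fell and 8 did not pass, against 12.2% and 17.5% of all genes. The median log2 difference of the 35 was 0.46 for SufuKO minus wildtype, 0.90 for Ptch1KO minus wildtype and 0.45 for Ptch1KO minus SufuKO, and the medians of all genes tested were -0.006, -0.013 and -0.008. The comparisons share arrays, the first 2 of them the wildtype ones, so their counts are not independent of each other.

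The rise was at least 1 log2 unit in 4 genes for SufuKO over wildtype (1.14% of all genes), in 16 for Ptch1KO over wildtype (3.43%) and in 3 for Ptch1KO over SufuKO (0.754%). Every SufuKO array was above every wildtype array in 29 genes (21.3% of all genes) and below in 1 (19.6%). Every Ptch1KO array was above every wildtype array in 31 (26.4%) and below in 1 (30.2%), and it was above every SufuKO array in 24 (16.1%) and below in 1 (23.6%).

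In 22 of the 35 genes every Ptch1KO array was above every SufuKO array and every SufuKO array above every wildtype array, an order seen in 8.6% of all genes tested. There were 21 genes called higher in all 3 comparisons, 5 called higher in tumours against both other groups but not in SufuKO cerebella, and 2 called higher in both mutants with no called difference between them. Xrcc3 and Fancl were called higher in tumours against wildtype alone. Mus81 was lower in both mutants, Fancg was highest in the SufuKO group, and Fance, Rad51d and Slx4 passed no test. Palb2 and Brip1 cleared the filter on low values on 7 arrays, which were all 6 mutant arrays and 1 wildtype array, and the other 33 cleared it on all 9. With no filter the counts of genes that rose were again 24, 30 and 26.

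**Figure D1:**
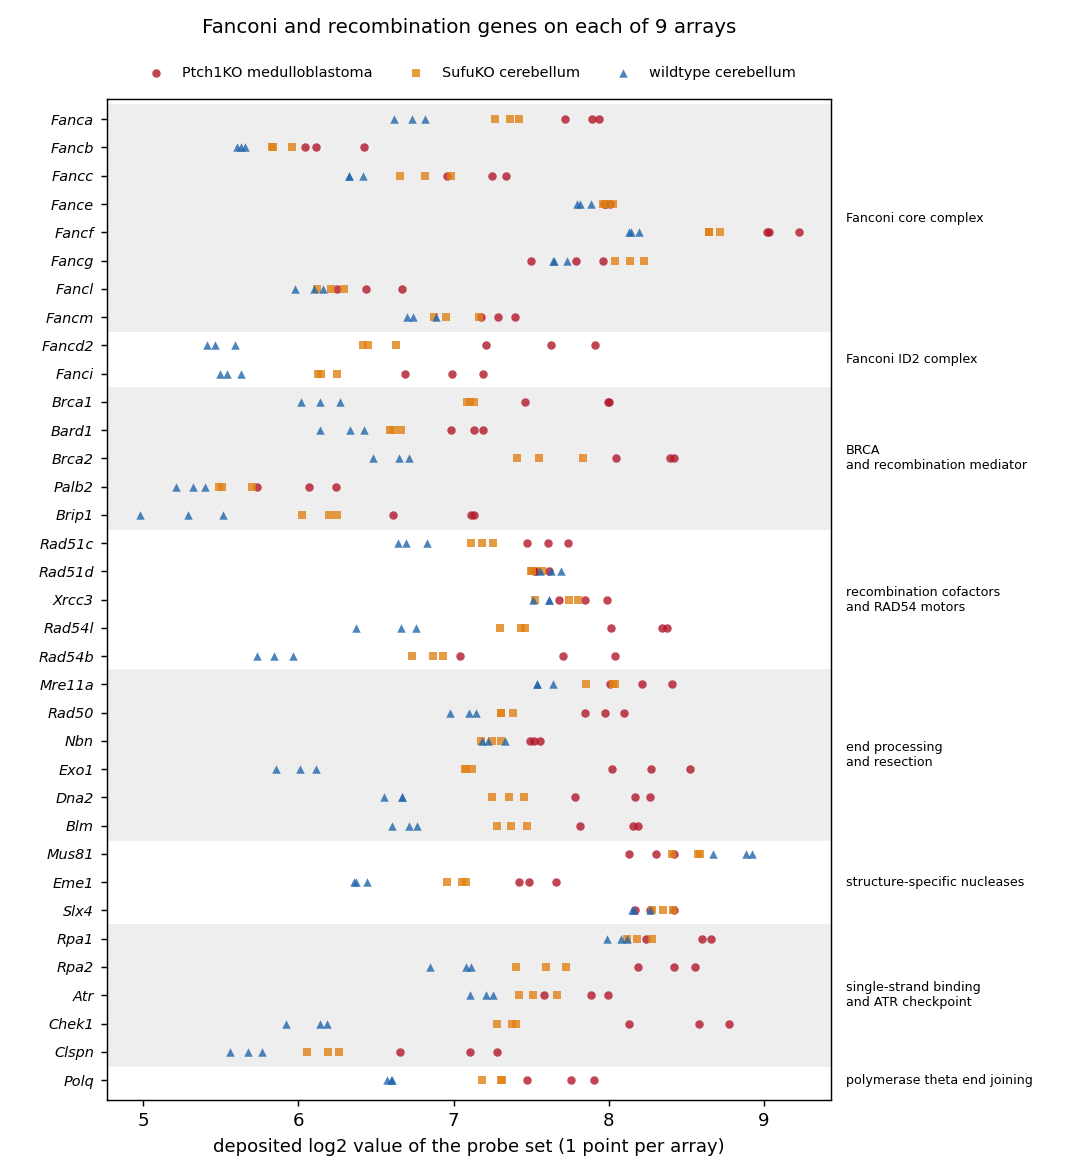
Deposited log2 value (horizontal axis) of each of the 35 genes (vertical axis, grouped by role) on each of 9 arrays, with red circles for Ptch1KO tumours, orange squares for SufuKO cerebella and blue triangles for wildtype cerebella. In 22 genes the 3 groups stand apart in the order wildtype, SufuKO, Ptch1KO; in Mus81 the wildtype arrays are the highest and in Fancg the SufuKO arrays are.

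RefSeq promoter windows of GRCm38.p6, from 250 bases before to 50 bases after the start site, were at hand for 29 of the 35 genes. E2F factors switch on replication genes through a core of TT, then a pair of bases each C or G, then CGC (searched as TTCCCGC or TTCGCGC or TTGCCGC or TTGGCGC, on both strands). A core was found in 15 of the 29 genes (51.7%), against 17.0% of the 12843 tested genes with a window and 9.57% of all 32851 windows of the table. Of the 17 genes called higher in all 3 comparisons that had a window, 12 held a core, and of the other 12 genes 3 did (Fancb, Fancg and Fancm). Those of the 17 without a core were Fanca, Fancc, Rad54l, Dna2 and Eme1. A match describes letters only and is not a binding site. The following stretches show the core in capitals with up to 10 bases on each side, for 8 genes that were higher in all 3 comparisons and for Fancg, which was not.
Chek1 (chr9:36726609-36726625, plus strand): TTCCCGCcaaaacctgc
Fanci (chr7:79392346-79392372, minus strand): ccttccaaaaTTCCCGCtctactccac
Brca1 (chr11:101551918-101551944, plus strand): aaccggccgcTTGGCGCctagcgctag
Brca2 (chr5:150522443-150522469, minus strand): gtgtgtctgtTTCCCGCtgtggcctaa
Brip1 (chr11:86201181-86201207, plus strand): cacagatgaaTTCGCGCctcccgcccc
Rad51c (chr11:87404943-87404969, plus strand): ccccttgcttTTCCCGCcctcgcgggg
Blm (chr7:80535124-80535150, minus strand): atcatccttcTTGCCGCgcagagcgtg
Polq (chr16:37011786-37011812, minus strand): cgcctccatcTTCCCGCctccatcttc
Fancg (chr4:43010336-43010362, minus strand): tcttttcagtTTCCCGCggaaccgtct
The letters TTCCCGC recurred in Chek1, Fanci, Brca2, Rad51c, Polq and Fancg, while Brca1 carries TTGGCGC, Brip1 TTCGCGC and Blm TTGCCGC. In Chek1 the core ends the searched stretch, since it begins at base 44 after the start site, and in Brca2 it begins at base -168. The core of Fancf, which is not printed, overlaps a CCAAT box.

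The 100 bases before the start site are shown for Rpa2, which rose in all 3 comparisons, and for Mus81, the only one of the 35 that fell in both mutants. Capitals mark motif matches on either strand, where GCGGGAA is the E2F core TTCCCGC read from the other strand and ATTGG is a CCAAT box read from the other strand.
Rpa2 (chr4:132768260-132768359, plus strand): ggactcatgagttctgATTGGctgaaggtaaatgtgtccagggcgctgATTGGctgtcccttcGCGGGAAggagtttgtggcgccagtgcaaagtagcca
Mus81 (chr19:5488380-5488479, minus strand): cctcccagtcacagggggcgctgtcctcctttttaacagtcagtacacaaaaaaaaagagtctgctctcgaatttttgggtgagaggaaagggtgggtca
Rpa2 held an E2F core and 2 CCAAT boxes in these bases, and no match to the 3 motifs was found in those of Mus81. Dna2, which like Rpa2 rose in all 3 comparisons, had no match to the 3 motifs in its whole window. CCAAT boxes, which bind the factor NF-Y, were found for 17 of the 29 genes (58.6%) and for 41.7% of the tested genes with a window. The cell cycle homology element (TTTGAA or TTCGAA), a mark of mitotic genes, was found for 4 of the 29 genes (13.8%), against 16.5% of the tested genes and 6 of 9 proliferation markers with a window. An E2F core was found for 3 of those 9 markers.

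**Figure D2:**
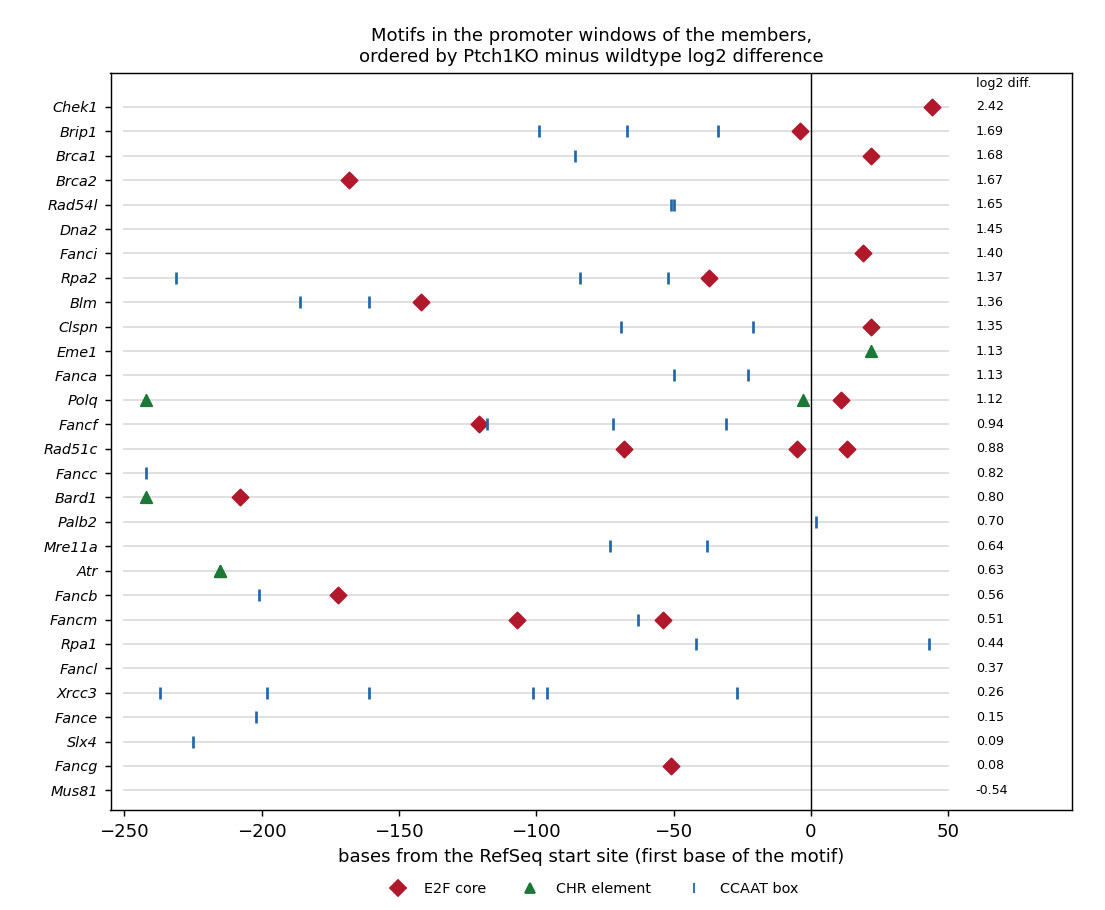
Position of each motif match (horizontal axis, bases from the start site) in the promoter windows of 29 genes (vertical axis, from the highest to the lowest Ptch1KO minus wildtype log2 difference, printed at the right); red diamonds are E2F cores, green triangles cell cycle homology elements and blue bars CCAAT boxes, and the 2 genes with several windows have them on 1 line. E2F cores stand in windows of 15 of the 29 genes, and no motif was found in Dna2, Fancl or Mus81.

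Most genes of the Fanconi core complex rose in tumours, and about as many rose in SufuKO cerebella as did not. Of its 8 genes 4 rose in SufuKO cerebella and 6 in tumours against wildtype, with median log2 differences of 0.35 and 0.53, and against SufuKO cerebella 5 rose in tumours and 1 fell. Fanca, a large subunit of the complex, had log2 values of 7.89, 7.93 and 7.72 in the Ptch1KO tumours, 7.42, 7.36 and 7.26 in the SufuKO cerebella and 6.82, 6.61 and 6.73 in the wildtype cerebella. The 3 groups did not overlap, and the log2 difference from wildtype was 1.13 ± 0.08 in tumours and 0.63 ± 0.08 in SufuKO cerebella (SE; limma adjusted p = 2.95e-07 and 0.000168). Fancf, an adaptor of the complex, rose by 0.94 in tumours and 0.51 in SufuKO cerebella on the log2 scale, with no overlap between the 3 groups. Fancc, another subunit, rose by 0.82 and 0.46 in the same comparisons. Its log2 difference of 0.36 between Ptch1KO and SufuKO (limma adjusted p = 0.0205) was not called with Ptch1KO replicate 1 or 2 or SufuKO replicate 1 or 2 left out (adjusted p 0.0599 to 0.0984), and the arrays of those groups overlapped.

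Fancg, which sits beside Fanca in the complex, followed another order. Its log2 values were 7.50, 7.97 and 7.79 in the Ptch1KO tumours, 8.23, 8.14 and 8.04 in the SufuKO cerebella and 7.64, 7.73 and 7.64 in the wildtype cerebella. Every SufuKO array was above every array of both other groups, by 0.46 ± 0.10 over wildtype (SE; limma adjusted p = 0.00597). Tumour and wildtype arrays overlapped, with a difference of 0.08 and a 95% interval from -0.15 to 0.30, and the tumours lay below SufuKO cerebella by a log2 difference of -0.38 (limma adjusted p = 0.0137). That call ended with Ptch1KO replicate 1 left out (adjusted p = 0.0526). Fancg was the single one of the 35 called lower in tumours than in SufuKO cerebella, and its window holds the E2F core printed above.

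Fancm, the DNA translocase that anchors the complex, and Fancl, its ubiquitin ligase subunit, rose in tumours, by 0.51 and 0.37 over wildtype, and did not pass in SufuKO cerebella (0.22 and 0.13). Fancm also passed against SufuKO cerebella (0.29, limma adjusted p = 0.0290), but not with Ptch1KO replicate 1 or 2 or SufuKO replicate 1 or 2 left out (adjusted p 0.0753 to 0.122). Fancl did not pass there (0.24, limma adjusted p = 0.0886) unless Ptch1KO replicate 3 was left out (adjusted p = 0.0144). Fance differed from wildtype by 0.16 in SufuKO cerebella and 0.15 in tumours, with no overlap with wildtype in either but limma adjusted p of 0.0695 and 0.0539.

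Fancb, the X-linked subunit, had log2 values of 6.04, 6.42 and 6.11 in the Ptch1KO tumours, 5.83, 5.84 and 5.96 in the SufuKO cerebella and 5.61, 5.63 and 5.66 in the wildtype cerebella. Tumour replicate 2 was the highest array, and the groups did not overlap. The difference from wildtype was 0.56 in tumours (limma adjusted p = 0.000266) and 0.24 in SufuKO cerebella (adjusted p = 0.0768). The SufuKO difference passed with Ptch1KO replicate 2 left out (adjusted p = 0.0232). The difference between Ptch1KO and SufuKO was 0.32 (limma adjusted p = 0.0202), which was not called with Ptch1KO replicate 2 or SufuKO replicate 1 or 2 left out (adjusted p 0.0593 to 0.0803). It stood at 0.20 with Ptch1KO replicate 2 left out. Xist, the transcript of the inactive X chromosome, was high on Ptch1KO replicate 2, SufuKO replicate 3 and all 3 wildtype arrays (11.59 to 11.97) and low on the other 4 (5.55 to 5.83). With the Xist level in the fit, Fancb passed in all 3 comparisons (limma adjusted p = 0.00538 for SufuKO, 2.24e-05 for Ptch1KO against wildtype and 0.00389 for Ptch1KO against SufuKO). The imbalance in Xist touches every gene compared with wildtype, not Fancb alone. In that fit 31 of the 35 genes kept their sign and call for SufuKO against wildtype, and 34 for Ptch1KO against wildtype.

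Both genes of the pair that the core complex marks rose in all 3 comparisons. Fancd2 had log2 values of 7.63, 7.91 and 7.21 in the Ptch1KO tumours, 6.42, 6.45 and 6.63 in the SufuKO cerebella and 5.59, 5.46 and 5.41 in the wildtype cerebella. The lowest tumour array stood above the highest SufuKO array, and that one above every wildtype array. Against wildtype Fancd2 was 4.28-fold higher in tumours (2.10 ± 0.14 on the log2 scale, SE; limma adjusted p = 1.74e-07) and 2.02-fold higher in SufuKO cerebella (1.01 ± 0.14; adjusted p = 0.000282). Fanci rose 2.64-fold in tumours and 1.54-fold in SufuKO cerebella, with no overlap between the 3 groups.

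**Figure D3:**
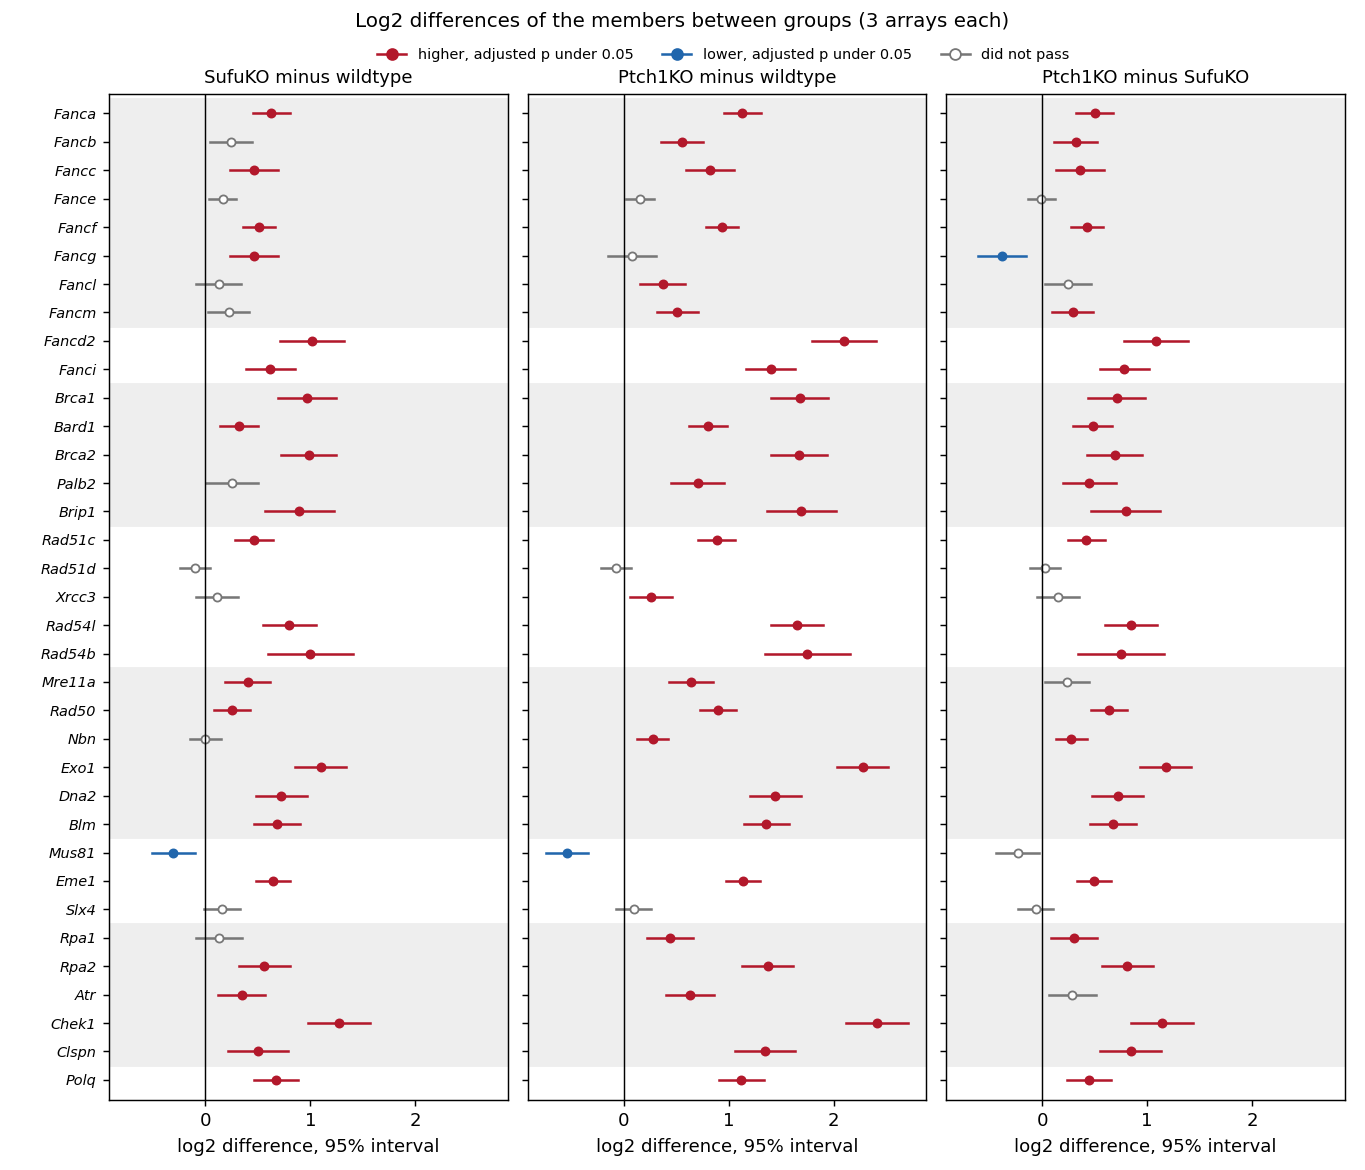
Log2 difference (horizontal axis) of each of the 35 genes (vertical axis, by role) in the 3 comparisons of 3 arrays against 3, with 95% intervals from limma. Red points were called higher, blue points lower and open points did not pass; Chek1, Exo1 and Fancd2 lie farthest to the right in the Ptch1KO minus wildtype panel, and Mus81 is the one point called lower there.

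The 5 genes of the BRCA and recombination mediator group all rose in tumours. They rose there against both wildtype and SufuKO cerebella, with median log2 differences of 1.67 and 0.69, and 4 of 5 rose in SufuKO cerebella with a median of 0.90. Brca1, which starts repair by recombination at broken ends, had log2 values of 7.99, 8.0 and 7.46 in the Ptch1KO tumours, 7.13, 7.09 and 7.11 in the SufuKO cerebella and 6.27, 6.02 and 6.14 in the wildtype cerebella. Brca2, a mediator of recombination on single-stranded DNA, had 8.39, 8.42 and 8.05 in the Ptch1KO tumours, 7.41, 7.55 and 7.83 in the SufuKO cerebella and 6.71, 6.48 and 6.65 in the wildtype cerebella. In both genes the groups stood apart, and tumour replicate 3 was the lowest tumour array. Brca1 was 3.20-fold higher in tumours and 1.96-fold higher in SufuKO cerebella than in wildtype (limma adjusted p = 4.20e-07 and 0.000182). Brca2 was 3.19-fold and 1.98-fold higher in the same comparisons (limma adjusted p = 3.26e-07 and 0.000125). Brip1, a helicase that binds BRCA1, differed from wildtype by 1.69 in tumours and 0.90 in SufuKO cerebella, and is one of the pair that were near the filter in wildtype.

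Bard1, the obligate partner of Brca1 in their ubiquitin ligase, rose by 0.80 in tumours (limma adjusted p = 6.44e-06) and by 0.32 in SufuKO cerebella (adjusted p = 0.0143). The SufuKO call ended with wildtype replicate 3 left out (adjusted p = 0.0629). Its other probe sets gave differences from wildtype of 1.46 and 0.69 in tumours and of 0.75 and 0.17 in SufuKO cerebella. Palb2, which links BRCA1 to BRCA2, had log2 values of 6.07, 6.24 and 5.73 in the Ptch1KO tumours, 5.49, 5.70 and 5.51 in the SufuKO cerebella and 5.21, 5.40 and 5.32 in the wildtype cerebella. The 3 groups did not overlap, with tumour replicate 3 close to the highest SufuKO array. Palb2 rose in tumours by 0.70 ± 0.11 (SE; limma adjusted p = 0.000242), while the SufuKO difference of 0.26 did not pass (adjusted p = 0.132). It did pass with Ptch1KO replicate 3 left out (adjusted p = 0.0402). Tumours exceeded SufuKO cerebella by 0.45 (limma adjusted p = 0.0102), a call that ended with Ptch1KO replicate 2 left out (adjusted p = 0.0504).

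Both RAD54 motors rose in all 3 comparisons. Rad54l, a DNA translocase that helps the broken strand invade its match, had log2 values of 8.34, 8.38 and 8.01 in the Ptch1KO tumours, 7.46, 7.30 and 7.44 in the SufuKO cerebella and 6.76, 6.66 and 6.37 in the wildtype cerebella. Rad54b, its relative, had 7.70, 8.04 and 7.04 in the Ptch1KO tumours, 6.93, 6.87 and 6.73 in the SufuKO cerebella and 5.84, 5.96 and 5.73 in the wildtype cerebella. Neither gene's groups overlapped, and tumour replicate 3 was the lowest tumour array in both. Rad54l was 3.13-fold and 1.74-fold above wildtype in tumours and SufuKO cerebella (limma adjusted p = 2.25e-07 and 0.000341), and Rad54b 3.37-fold and 2.0-fold (adjusted p = 7.36e-06 and 0.00201).

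Of the recombination cofactors Rad51c, Rad51d and Xrcc3, 1 rose in SufuKO cerebella and 2 in tumours against wildtype. Rad51c rose in all 3 comparisons, by 0.88 in tumours and 0.46 in SufuKO cerebella against wildtype. Xrcc3, the partner of Rad51c in one of its complexes, differed by 0.26 in tumours (limma adjusted p = 0.0379) and 0.11 in SufuKO cerebella. The tumour call ended with Ptch1KO replicate 1 or 3 or SufuKO replicate 2 or wildtype replicate 1, 2 or 3 left out (adjusted p 0.0513 to 0.165), and with the Xist level in the fit the difference was 0.11. Rad51d, another partner of Rad51c, had log2 values of 7.61, 7.53 and 7.52 in the Ptch1KO tumours, 7.57, 7.51 and 7.50 in the SufuKO cerebella and 7.69, 7.55 and 7.63 in the wildtype cerebella. All 3 groups of Rad51d overlapped, and the intervals of its differences ran from -0.21 to 0.07 in tumours and from -0.24 to 0.04 in SufuKO cerebella.

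Of the 6 end processing genes, 6 rose in tumours and 5 in SufuKO cerebella against wildtype, with median log2 differences of 1.13 and 0.54. Exo1, which digests one strand over long distances, had log2 values of 8.27, 8.53 and 8.02 in the Ptch1KO tumours, 7.12, 7.08 and 7.08 in the SufuKO cerebella and 6.01, 6.12 and 5.86 in the wildtype cerebella. The 3 groups stood far apart, and the SufuKO arrays lay close together. Exo1 was 4.85-fold higher in tumours and 2.14-fold higher in SufuKO cerebella than in wildtype (limma adjusted p = 2.05e-08 and 3.19e-05), and tumours were 2.27-fold above SufuKO cerebella (adjusted p = 2.00e-05). Dna2, the other long-range nuclease, and Blm, the helicase that works with it, rose by 1.45 and 1.36 in tumours and by 0.73 and 0.68 in SufuKO cerebella. In both the 3 groups stood apart.

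The complex of Mre11a, Rad50 and Nbn, which senses broken ends and makes the first cut, rose in tumours in all 3 of its genes on the probe sets used. Rad50, its zinc-hook ATPase, had log2 values of 7.97, 8.10 and 7.84 in the Ptch1KO tumours, 7.31, 7.31 and 7.38 in the SufuKO cerebella and 6.97, 7.15 and 7.10 in the wildtype cerebella. Nbn, the subunit that recruits the ATM kinase, had 7.51, 7.55 and 7.49 in the Ptch1KO tumours, 7.18, 7.25 and 7.31 in the SufuKO cerebella and 7.33, 7.19 and 7.22 in the wildtype cerebella. Rad50 stood apart in all 3 groups, while the SufuKO and wildtype arrays of Nbn overlapped. Rad50 rose by 0.90 in tumours (limma adjusted p = 1.44e-06) and 0.26 in SufuKO cerebella (adjusted p = 0.0310), and that SufuKO call ended with SufuKO replicate 1, 2 or 3 or wildtype replicate 1 or 3 left out (adjusted p 0.0517 to 0.125). Nbn rose in tumours by 0.28 over wildtype (limma adjusted p = 0.00440) and differed by 0.00 in SufuKO cerebella with an interval from -0.15 to 0.14. A second probe set of Nbn gave -0.07 in tumours (adjusted p = 0.600), and the mean of the Nbn probe sets did not pass (0.10, adjusted p = 0.208). Mre11a, the nuclease subunit, rose by 0.64 in tumours and 0.40 in SufuKO cerebella. Its difference between Ptch1KO and SufuKO (0.24, limma adjusted p = 0.0893) passed with Ptch1KO replicate 3 left out (adjusted p = 0.0118). Whether the subunits changed by different amounts was not tested.

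The nuclease partners Mus81 and Eme1, which cut branched DNA together, moved in opposite directions. Mus81, the catalytic subunit, had log2 values of 8.13, 8.42 and 8.31 in the Ptch1KO tumours, 8.59, 8.57 and 8.40 in the SufuKO cerebella and 8.67, 8.88 and 8.93 in the wildtype cerebella. Eme1, its partner, had 7.49, 7.66 and 7.42 in the Ptch1KO tumours, 6.96, 7.08 and 7.05 in the SufuKO cerebella and 6.44, 6.37 and 6.36 in the wildtype cerebella. Every wildtype array of Mus81 was above every mutant array, and every wildtype array of Eme1 was below every mutant array. Mus81 was 1.46-fold lower in tumours than in wildtype (-0.54 ± 0.09 on the log2 scale, SE; limma adjusted p = 0.000387). In SufuKO cerebella the difference was -0.31 ± 0.09 (SE; limma adjusted p = 0.0306), and that call ended with SufuKO replicate 2 or 3 or wildtype replicate 2 or 3 left out (adjusted p 0.0563 to 0.113) and with the Xist level in the fit (adjusted p = 0.0797). Between Ptch1KO and SufuKO it was -0.24 (limma adjusted p = 0.0812), which passed with SufuKO replicate 3 left out (adjusted p = 0.0445). Eme1 was 2.20-fold higher in tumours and 1.56-fold higher in SufuKO cerebella (limma adjusted p = 1.54e-07 and 8.26e-05). Slx4, the scaffold that holds these nucleases, differed from wildtype by 0.09 in tumours and 0.16 in SufuKO cerebella and passed neither test.

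Chek1, the checkpoint kinase that halts the cycle when forks stall, had the largest rise of the 35 in both mutants against wildtype. Its log2 values were 8.58, 8.78 and 8.13 in the Ptch1KO tumours, 7.28, 7.40 and 7.38 in the SufuKO cerebella and 6.14, 5.92 and 6.18 in the wildtype cerebella. The 3 groups were separate, with tumour replicate 3 the lowest tumour array. Chek1 was 5.34-fold higher in tumours and 2.42-fold higher in SufuKO cerebella than in wildtype (limma adjusted p = 5.01e-08 and 4.15e-05), and 2.21-fold higher in tumours than in SufuKO cerebella (adjusted p = 7.56e-05). Clspn, the adaptor that brings CHEK1 to its activating kinase, rose by 1.35 in tumours and 0.50 in SufuKO cerebella (limma adjusted p = 3.69e-06 and 0.0150), and the SufuKO call ended with SufuKO replicate 2 or wildtype replicate 3 left out (adjusted p 0.0594 to 0.0613). Atr, that kinase, rose by 0.63 in tumours and 0.35 in SufuKO cerebella (limma adjusted p = 0.000256 and 0.0282), and the SufuKO call ended with SufuKO replicate 2 or 3 or wildtype replicate 1 or 2 left out (adjusted p 0.0653 to 0.105). Between Ptch1KO and SufuKO the difference of Atr was 0.29 (limma adjusted p = 0.0563), which passed with Ptch1KO replicate 3 or SufuKO replicate 3 left out (adjusted p 0.00425 to 0.0305).

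RPA coats single-stranded DNA, and both its measured subunits rose in tumours. Rpa2 had log2 values of 8.42, 8.55 and 8.19 in the Ptch1KO tumours, 7.59, 7.40 and 7.72 in the SufuKO cerebella and 7.08, 6.85 and 7.11 in the wildtype cerebella. Rpa1, the large subunit, had 8.60, 8.66 and 8.24 in the Ptch1KO tumours, 8.12, 8.18 and 8.28 in the SufuKO cerebella and 7.99, 8.08 and 8.12 in the wildtype cerebella. Rpa2 separated the 3 groups and Rpa1 did not, since tumour replicate 3 fell among the SufuKO arrays. Rpa2 was 2.59-fold higher in tumours and 1.47-fold higher in SufuKO cerebella (limma adjusted p = 7.50e-07 and 0.00292). Rpa1 rose by 0.44 in tumours (limma adjusted p = 0.00314) and differed by 0.13 in SufuKO cerebella (adjusted p = 0.406). Its difference of 0.31 between Ptch1KO and SufuKO (limma adjusted p = 0.0381) was not called with Ptch1KO replicate 1 or 2 or SufuKO replicate 1 or 2 or wildtype replicate 2 left out (adjusted p 0.0528 to 0.166), with only those groups in the fit (adjusted p = 0.0697) or with the replicate number as a block (adjusted p = 0.0562).

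Polq, the polymerase that joins ends through short matching stretches when recombination fails, rose in all 3 comparisons. Its log2 values were 7.91, 7.76 and 7.47 in the Ptch1KO tumours, 7.18, 7.30 and 7.31 in the SufuKO cerebella and 6.60, 6.59 and 6.57 in the wildtype cerebella. The wildtype arrays lay close together and below every mutant array. Polq was 2.18-fold higher in tumours and 1.60-fold higher in SufuKO cerebella than in wildtype (limma adjusted p = 1.31e-06 and 0.000363).

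The medians of the other repair lists were below that of the 35, a difference that was not tested. Of 43 further Fanconi and recombination genes tested, 28 rose and 1 fell (Rad52, -0.20) in tumours against wildtype, with a median log2 difference of 0.38, and 19 rose in SufuKO cerebella, with a median of 0.21. The Holliday junction nuclease Gen1 led them with 2.42 in tumours and 1.42 in SufuKO cerebella (limma adjusted p = 9.15e-09 and 3.91e-06), followed in tumours by Fignl1 (1.76) and the ATR activator Topbp1 (1.49). Tumours exceeded SufuKO cerebella in 18 of the 43, and Rev3l (-0.23) and Rad52 (-0.18) were lower. An E2F core was in the window of 16 of the 38 of these genes that had one.

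Among 10 classical end joining genes tested, which rejoin ends without a template, 5 rose in tumours against wildtype with a median of 0.16. They were Xrcc5 (1.06), Trp53bp1 (0.48), Xrcc6 (0.30), Nhej1 (0.23) and Lig4 (0.22). In SufuKO cerebella Xrcc5 (0.58) and Trp53bp1 (0.49) rose and Rif1, which protects ends from resection, fell by 0.45 on the log2 scale (limma adjusted p = 0.0124). Of 5 mismatch repair genes Msh6 alone rose, by 1.10 in tumours and 0.60 in SufuKO cerebella. Of 15 nucleotide excision repair genes 5 rose and 1 fell in tumours, where the fall was Ercc3 (-0.26), and Ddb1 rose in SufuKO cerebella (0.20). Of 15 base excision repair genes 10 rose and 1 fell (Polb, -0.41) in tumours and 7 rose in SufuKO cerebella, led by the glycosylase Neil3 (2.82 in tumours and 1.80 in SufuKO cerebella). Of all genes tested 22.1% rose in tumours and 13% in SufuKO cerebella, against 33.3% and 6.67% of the nucleotide excision genes. The shares were 20.0% in both of the mismatch genes, where 20.0% is 1 gene, and 50% and 20% of the end joining genes. They were 66.7% and 46.7% of the base excision genes, and 65.1% and 44.2% of the further Fanconi and recombination genes.

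**Figure D4:**
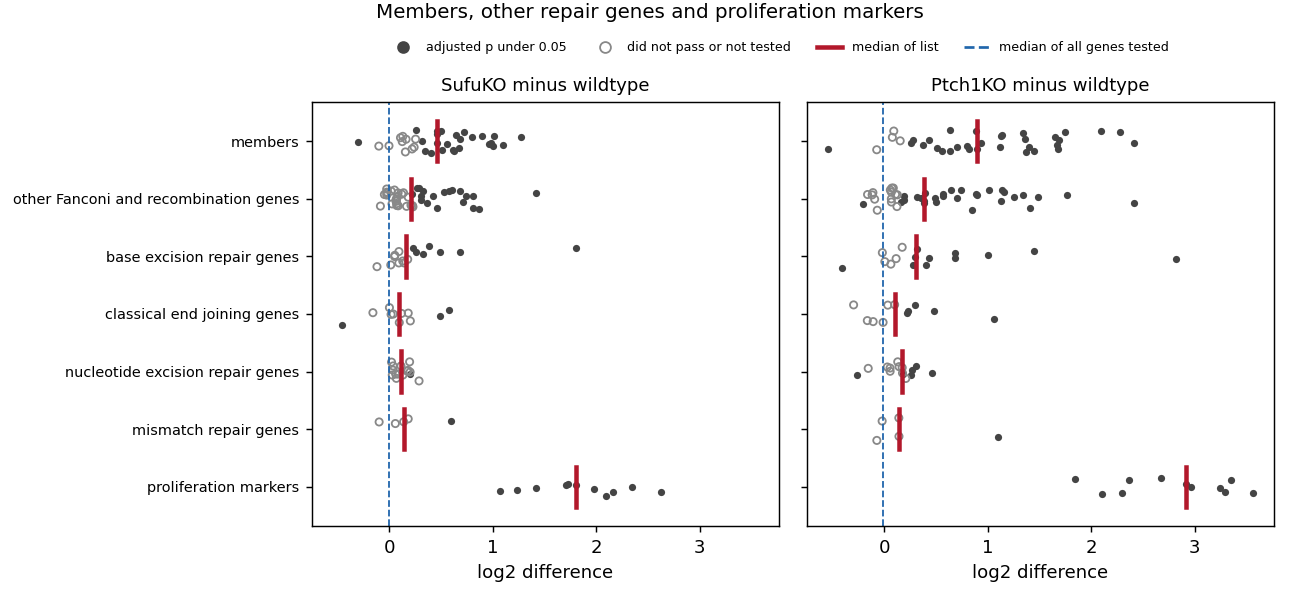
Log2 difference (horizontal axis) of each gene in the 35 described here, 5 other repair lists and the proliferation markers, for SufuKO minus wildtype and Ptch1KO minus wildtype. Filled points passed a limma adjusted p under 0.05, red bars are list medians and the dashed line is the median of all genes tested; the red bar of the 35 stands at 0.46 and 0.90 and that of the proliferation markers at 1.80 and 2.91.

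Proliferation markers moved with these genes. All 11 of the 11 tested rose in each of the 3 comparisons, with median log2 differences of 1.80 for SufuKO minus wildtype, 2.91 for Ptch1KO minus wildtype and 0.95 for Ptch1KO minus SufuKO. Mki67, made in dividing cells, averaged 10.60 ± 0.28 in Ptch1KO tumours, 9.67 ± 0.08 in SufuKO cerebella and 7.04 ± 0.25 in wildtype cerebella (SD, n = 3 each). The mean log2 value of the 35 repair genes was 7.75, 7.84 and 7.51 in Ptch1KO tumours, 7.20, 7.21 and 7.26 in SufuKO cerebella and 6.75, 6.72 and 6.71 in wildtype cerebella. That of the proliferation markers was 9.93, 9.87 and 9.43 in tumours, 8.76, 8.73 and 8.90 in SufuKO cerebella and 7.13, 6.82 and 6.94 in wildtype cerebella. Markers of mature granule neurons ran the other way, at 9.12, 9.24 and 9.79 in tumours, 10.54, 10.59 and 10.60 in SufuKO cerebella and 11.22, 11.28 and 11.42 in wildtype cerebella, and 8 of 8 fell in tumours and 7 of 8 in SufuKO cerebella against wildtype. Of all genes tested 24.7% fell in tumours and 12.4% in SufuKO cerebella against wildtype. The part of these markers' cells in the changes of the repair genes was not tested. In bulk tissue fewer cells of a type and less RNA per cell cannot be told apart.

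Tumour replicate 3 stood apart within its group. It was the lowest tumour array in 31 of the 35 repair genes and in 11 of 11 proliferation markers, against 39.1% of all genes tested, and it had the highest mean of the mature granule neuron markers. The mean of tumour replicates 1 and 2 exceeded replicate 3 by a median of 0.30 in log2 value over the repair genes, 0.48 over the proliferation markers and 0.002 over all genes. With that array left out, 25 of the 35 rose in SufuKO cerebella and 29 in tumours against wildtype, and 29 rose in tumours against SufuKO cerebella. Over all genes, 2359 rather than 2122 rose in SufuKO cerebella and 3701 rather than 3606 in tumours against wildtype. Against SufuKO cerebella 2288 rather than 1991 of all genes rose in tumours. Falls were fewer in tumours, at 3949 rather than 4038 against wildtype and 2834 rather than 2855 against SufuKO cerebella. In SufuKO cerebella 2214 rather than 2028 of all genes fell against wildtype.

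**Figure D5:**
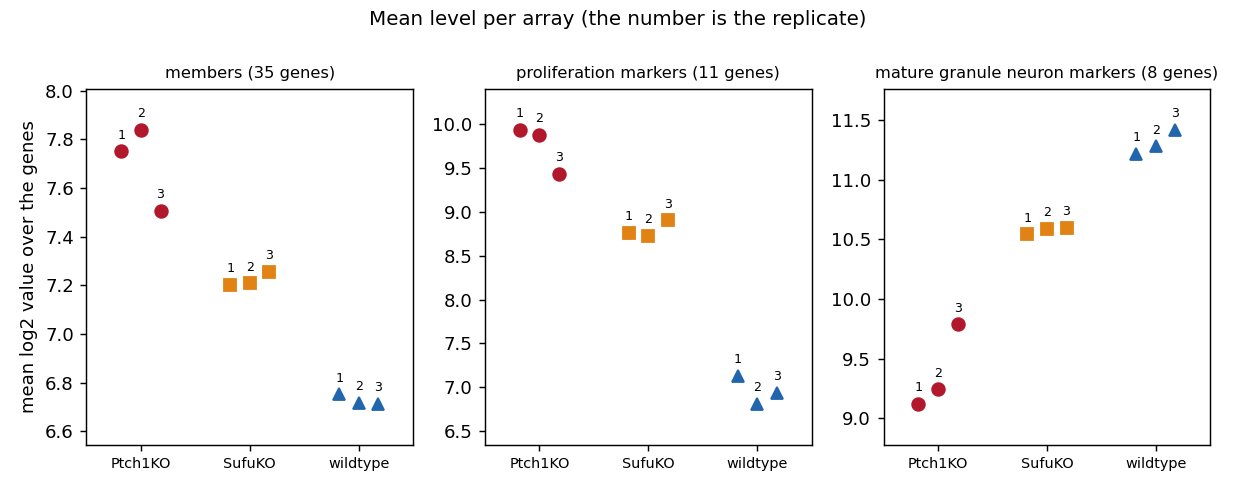
Mean log2 value per array (vertical axis; each panel has its own scale, which does not start at 0) of the 35 repair genes, 11 proliferation markers and 8 mature granule neuron markers, by group with the replicate number over each point. The repair genes and the proliferation markers are highest in tumours and lowest in wildtype, and tumour replicate 3 (7.51 and 9.43) is the lowest tumour array in both.

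The labels were checked against the deleted genes and tissue markers. Sufu had log2 values of 9.91, 9.92 and 9.81 in the Ptch1KO tumours, 8.07, 8.14 and 7.99 in the SufuKO cerebella and 9.03, 8.82 and 9.02 in the wildtype cerebella, lowest in all 3 SufuKO arrays. Ptch1 was higher in Ptch1KO tumours (11.24, 11.43 and 11.17) than in wildtype (10.25, 10.26 and 10.28), and since the deleted part is not given this checks nothing. Markers of granule neuron progenitors rose in 8 of 9 genes in tumours and 6 of 9 in SufuKO cerebella, and all 6 Purkinje cell markers and all 7 oligodendrocyte markers tested fell in both against wildtype. Of 8 markers of Bergmann glia and astrocytes 6 fell in each. Of 7 microglia markers 3 rose in tumours, with a median log2 difference of 0.23, and 1 rose in SufuKO cerebella, with a median of 0.06. Neither of the 2 lymphocyte markers tested passed. Of 4 testis germ cell markers tested 1 rose in each mutant against wildtype and 3 did not pass. That rise was large, at 4.03 on the log2 scale in SufuKO cerebella and 4.49 in tumours, and its source was not tested. Of all genes tested 22.1% rose and 24.7% fell in tumours against wildtype, and 13% rose and 12.4% fell in SufuKO cerebella. The 1 microglia marker that rose in SufuKO cerebella is 14.3% of its list, near the share of all genes. The part of these cell types in the results was not tested.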

How the data were processed

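RNA of 3 samples each of Ptch1KO tumour, SufuKO cerebellum and wildtype cerebellum was measured on Affymetrix gene arrays (1 array a sample), per the labels' protocols. The deposited values are log2 intensities per probe set; how the authors corrected and normalised them is not given in the sources used here, and no scanner files were used. Of 35556 probe sets, 21789 were annotated to 1 gene symbol, 1621 to several and 12146 were unnamed; 21698 matched RefSeq (GRCm38.p6) by gene ID, which changed 0 symbols. Per gene the probe set with the highest mean was kept, giving 19938 genes. The filter on low values asked for 3 or more arrays with the gene above the 25th percentile of that array, which left 16323.

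Differences were fitted with limma 3.58.1 in R 4.3.3, with 1 mean per group over all 9 arrays, moderated by eBayes, 2-sided, with Benjamini-Hochberg adjustment over all genes tested and a threshold of 0.05. SE are moderated, intervals cover 95%, and folds are log2 differences turned back to the linear scale. With 3 arrays a group, their number limits the precision. The script was tested on simulated data. Every listed gene with a probe set is reported; of the other repair lists, genes of a count of 5 or fewer and up to 3 of smallest p are named. The 35 genes and all lists, cell markers included, were chosen with earlier results of these data known. Promoter and gene tables are from RefSeq. Alternatives changed the filter, probe set rule, fit, normalization and arrays included.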

Additional observations from a re-analysis of the deposited data

Results flagged for a closer look

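Bard1 has 3 probe sets on the array, and the results above rest on the one with the highest mean level. The other probe sets, which entered none of the counts above, also carried differences between the groups. The one ranked second by mean level gave log2 differences of 0.75 for SufuKO minus wildtype, 1.46 for Ptch1KO minus wildtype and 0.71 for Ptch1KO minus SufuKO (limma adjusted p = 0.000647, 9.07e-07 and 0.000668, over all single-gene probe sets). The one ranked last gave 0.69 for Ptch1KO minus wildtype and 0.52 for Ptch1KO minus SufuKO (limma adjusted p = 0.000115 and 0.00220), while its SufuKO minus wildtype difference of 0.17 did not pass (adjusted p = 0.272). All of these pointed the same way as the probe set used, which gave 0.32, 0.80 and 0.48.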

How the results depend on the processing

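Under 18 alternatives per comparison no called difference of the 35 genes changed sign. The number that rose ran from 21 to 29 for SufuKO against wildtype, 25 to 31 for Ptch1KO against wildtype and 21 to 29 for Ptch1KO against SufuKO. Over all genes these numbers ran from 1531 to 3117, 3096 to 4024 and 1435 to 3098. Of the calls, 20 of 25, 29 of 31 and 21 of 27 in these comparisons were called under each of the alternatives in which the gene was tested. The number lower in SufuKO than wildtype, 1 in the main analysis, was 0 with the Xist level as a covariate and 0 to 1 with single arrays left out. The number lower in Ptch1KO than SufuKO was 2 with array weights and 0 to 2 with single arrays left out. With array weights 3098 rather than 1991 of all genes were higher in Ptch1KO than SufuKO. That fit gave SufuKO replicate 2 a weight of 4.66 and SufuKO replicates 1 and 3 weights of 0.56 and 0.47. The SufuKO mean there thus rested mostly on 1 array. The upper ends of 3117, 4024 and 3098 over all genes came from that fit. A filter at the array median left 29 of the 35 tested. For Ptch1KO against wildtype 28 of those 29 kept their sign and call and 1 gained a call. The low end of 25 there thus reflects genes left untested, not calls lost. No steady pairing of the samples by replicate number was seen. Correlations of same-numbered arrays ran from -0.31 to 0.35, and an array matched its own number best in 7 of 18 cases. The highest, 0.35, was that of SufuKO and wildtype replicate 3. With 3 arrays a group this check cannot exclude a pairing. With the replicate number as a block, 24 rose and 1 fell in SufuKO against wildtype, 30 and 1 in Ptch1KO against wildtype, and 25 and 1 in Ptch1KO against SufuKO. Over all genes the block gave 1979 higher and 2010 lower, 3530 and 3990, and 1877 and 2749 in the same order. The cause of these shifts was not tested. The values used hold no background level per probe set, so how far dim probe sets stand above background is unknown.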
